A study of Mus musculus with 15 samples.

Results

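The libraries described here carry the genotype label hr and are titled 221-Combi-uns-1-1, 221-Combi-uns-1-2, 221-Combi-uns-2-1 and 221-Combi-uns-2-2. They are 4 of the 8 libraries of experiment 2 and of the 15 libraries in the series, and were chosen by title, with no measured value. The first number after uns separates the uns-1 pair from the uns-2 pair, and the question was how far the 2 pairs differ across all genes although they share a genotype label. The other libraries of experiment 2 are 2 labelled EF, titled 221-1 and 221-2, and 2 labelled ha, titled 221-Combi-T1 and 221-Combi-T2. All 8 carry the cell type label MSCLCs, in a mouse study whose title names bone mesenchymal stem cells, YAP1, EWS::FLI1 and IGF-1. EWS::FLI1 is the fusion transcription factor of Ewing sarcoma. What EF, ha, hr, Combi, uns and MSCLCs stand for, what treatment, allele or age the cells had, and whether the libraries of a pair came from separate cultures is not stated in the labels. The p-values below therefore measure only the spread between the 2 libraries of a pair, which may be technical.

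The 4 hr libraries held 11386444 to 14211373 read counts each, and all 8 libraries were sequenced in lane 1 of 1 flowcell. Levels are in CPM, the gene's share of a library's counts in the usual unit, scaled with edgeR's TMM factors. Genes with at least 1 count numbered 18433 and 18417 in the uns-1 libraries and 21048 and 20282 in the uns-2 libraries. The mitochondrial share was 3.69% and 3.62% in uns-1 and 4.09% and 3.99% in uns-2. All 21 mesenchymal stromal markers were high enough to test, with summed levels of 9707 to 9822 CPM in uns-1 and 8068 to 8073 CPM in uns-2. The blood cell markers Cd52, Adgre1, Cd48 and Tyrobp, the muscle regulators Myf5, Myod1 and Myog, and the epithelial adhesion gene Epcam had no count in any hr library. The 16 blood cell markers summed to 7.98 to 10.3 CPM over the 4 libraries. The 10 epithelial markers summed to 51.8 to 53.1 CPM in uns-1 and 40.1 to 42.4 CPM in uns-2. Of the 3 that were tested, the keratin genes Krt14, at 13.9 and 14.3 CPM against 6.42 and 6.34 CPM, and Krt8, at 2.86 and 3.56 CPM against 1.14 and 0.892 CPM, were called higher in uns-1 by the rule given below. Keratin Krt7 went the other way, at 3.53 and 5.35 CPM against 9.99 and 9.55 CPM. Its call was lost with all 8 libraries in the fit (edgeR adjusted p = 0.126). Without uns-1 library 1 its log2 difference was -0.87, under 2-fold. In a wider list of keratins and epithelial genes, 9 were tested. Of these, 3 were called higher in uns-1 and 2 higher in uns-2 (55.6%, beside 9.03% over all tested genes), with a median log2 difference of 0.10.

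As background, YAP1 and its paralog TAZ, encoded by Wwtr1, are coactivators that bind DNA through TEAD factors, and the Hippo kinases LATS1 and LATS2 keep them out of the nucleus. Matrix stiffness and cell spreading raise their activity in mesenchymal cells, and Ccn1, Ccn2 and Ankrd1 are their standard readout genes. Cholesterol synthesis is set by the transcription factor SREBP2, which is released when sterols are low and binds sterol regulatory elements in the promoters of the pathway's enzymes.

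The 2 hr pairs differed over much of the transcriptome, while the libraries within each pair were nearly alike. The uns-1 pair had higher levels of 14 of 23 genes of cholesterol and fatty acid synthesis and of single genes such as Pi16, Dpt, Dcn and Col3a1. The uns-2 pair had higher levels of 8 of 21 YAP1/TAZ-TEAD target genes, Ccn1, Ccn2 and Ankrd1 among them, of the fibronectin gene Fn1 and of the chemokine genes Cxcl1 and Cxcl5. Matrix genes as a whole went both ways. Called here means an edgeR adjusted p under 0.05 and at least a 2-fold difference. By that rule 1172 of 12975 tested genes were called (9.03%), with 611 higher in uns-1 (4.71%) and 561 higher in uns-2 (4.32%). Of these, 351 differed by at least 4-fold and 144 by at least 8-fold, and 1007 were protein coding. The pairs did not overlap in any of the 1172, but they also did not overlap in 76.9% of all tested genes.

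**Figure D1:**
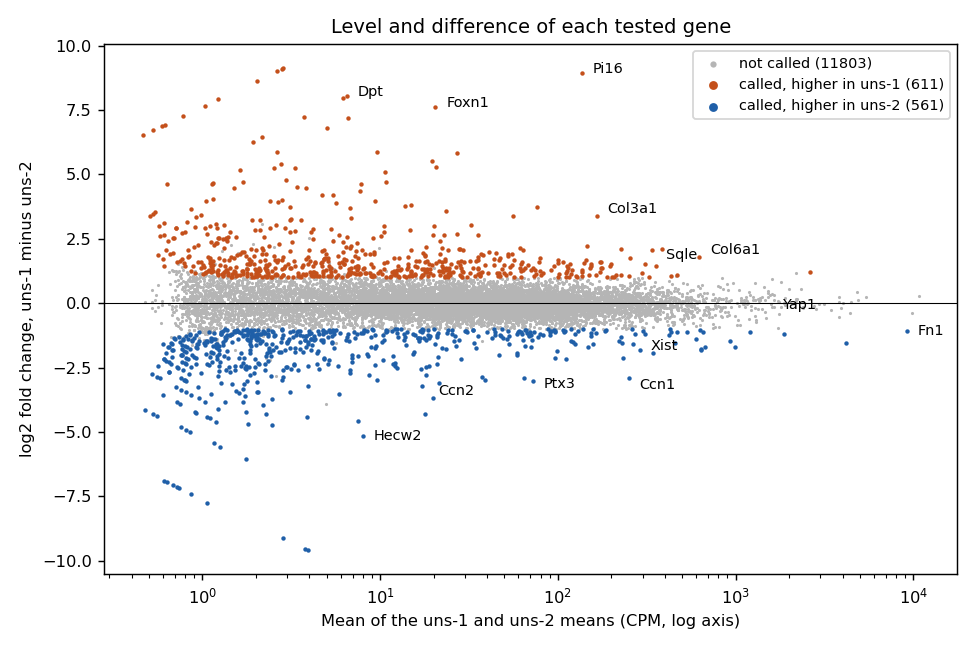
Each point is 1 of 12975 tested genes, with the mean level of the hr pairs in CPM on a log axis across and the log2 fold change, uns-1 minus uns-2, upward. The 611 genes called higher in uns-1 are orange and the 561 called higher in uns-2 are blue; Pi16 stands highest among well-expressed genes and Fn1 is the most abundant labelled gene.

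The size of the difference was set beside the other libraries with a distance, the median over genes of the squared difference of 2 libraries relative to what counting noise alone gives, so that 1 means no more than counting noise. Within the uns-1 pair it was 1.30, within the uns-2 pair 1.31 and within the EF pair 1.35. Between an uns-1 and an uns-2 library it was 12.3 to 13.5. This lay close to the distances of the EF libraries from uns-1, 13.3 to 14.4, and from uns-2, 12.9 to 15.1. It was below the distance between the 2 ha libraries, 15.6. The distance grows with the number of counts, and the ha libraries held more, 14297215 and 16378368. Whether that order holds at equal depth was not tested. The ha libraries lay nearer to uns-1 (28.3 to 32.6) than to uns-2 (36.8 to 47.5), without overlap.

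How many genes pass depends on whose spread is used and on how many libraries it comes from. With the spread of the hr pairs, a biological coefficient of variation of 0.0423, 55.5% of tested genes passed the adjusted p alone. With all 8 libraries in the fit it was 0.145 and 803 genes were called (6.19%). With each hr pair and the EF pair summed to 1 library, so that the spread came from the 2 ha libraries alone (0.267), edgeR called 0 genes (0%) at an adjusted p, and 691 had an unadjusted p under 0.05. That fit set 1 library against 1, with only the 2 ha libraries to give a spread, so it had little power at any fold. Its 0 therefore cannot tell whether the differences exceed a wider spread. Summing each pair and counting only genes past 2-fold, with no test, gave 1234 genes (9.51%).

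Among the genes of largest difference, those higher in uns-1 included genes of secreted proteins. Pi16, a secreted protease inhibitor that marks adventitial fibroblasts (ENSMUSG00000024011, GRCm38 chromosome 17, 29317680 to 29330593), stood at 262 and 285 CPM in the uns-1 libraries and at 0.785 and 0.268 CPM in the uns-2 libraries. EF stood at 3.59 and 3.62 CPM and ha at 20.6 and 9.16 CPM. Both uns-1 libraries were above all 6 others, and the log2 difference between the pairs was 8.92 ± 0.14 (SE; edgeR adjusted p = 4.46e-10). Foxn1, the transcription factor of thymus and hair epithelium, was at 42.3 and 39.2 CPM in uns-1 and at 0.285 and 0.0892 CPM in uns-2. It was at 11.9 and 11.3 CPM in EF and had no count in ha. The log2 difference was 7.61 ± 0.21 (edgeR adjusted p = 3.97e-15).

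Dpt, which encodes the matrix protein dermatopontin, had 307 counts in the uns-1 pair and 1 in the uns-2 pair, a ratio of 58.2 to 13000 by counting error. Lrrc17, a secreted leucine-rich repeat protein gene, had 293 counts against 1, a ratio of 55.6 to 12400. Ha levels of both were above those of uns-1, at 59.9 and 176 CPM for Dpt and at 85.1 and 22.5 CPM for Lrrc17. Other genes of this group were F13a1, a coagulation factor subunit (log2 difference 5.84), the neuronal pentraxin Nptx1 (5.51), the protocadherin Pcdh7 (5.28), Plxdc1 (5.09), the collagen-binding integrin Itga10 (4.70), the calcium pump gene Atp2c2 (4.64) and the oxidase gene Aox3, with 310 counts against 2. F13a1, Pcdh7, Atp2c2 and Aox3 were high in EF as well, at 87.0, 49.6, 17.4 and 12.9 CPM in its first library.

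The genes of largest difference that were higher in uns-2 included several secreted signals. Hecw2, a ubiquitin ligase gene, was at 0.336 and 0.509 CPM in uns-1 and at 14.8 and 16.2 CPM in uns-2, while EF and ha stayed at 0.865 to 3.83 CPM. It was higher in both uns-2 libraries than in the 6 others, with a log2 difference of -5.16 ± 0.25 (uns-1 minus uns-2; edgeR adjusted p = 8.87e-12). Cxcl5, a neutrophil chemokine gene, stood at 3.28 and 2.46 CPM in uns-1 and at 38.1 and 35.2 CPM in uns-2, with EF at 30.5 and 33.0 CPM. Here EF lay with uns-2, and the log2 difference between the hr pairs was -3.67 ± 0.13 (edgeR adjusted p = 1.54e-13). Ptx3, a secreted pattern recognition protein gene, was at 14.7 and 16.8 CPM against 126 and 131 CPM, a log2 difference of -3.03 ± 0.06 (edgeR adjusted p = 1.23e-16). Further members were Myom2, a sarcomere gene (-4.29), the protease inhibitor Ctla2a (-3.52), the adhesion protein gene Svep1 (-3.22), the chemokine Cxcl1 (-3.12), the fibrillar collagen Col11a1 (-2.98) and the interferon-inducible GTPase Gvin1 (-2.89), which did not pass without uns-1 library 1 or uns-1 library 2 (edgeR adjusted p = 0.092 and 0.107).

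A few genes were present in one pair and absent in the other. At least 5 CPM in one pair and at most 0.1 CPM in both libraries of the other was met by 7 genes on in uns-1 (Ptgds, Gm20458, Lum, Dpt, Lrrc17, Agt and Aox3) and 3 on in uns-2 (Slc13a4, Vwde and Gm4294). Against a floor of 3 counts over the pair, Ptgds, a prostaglandin synthase gene, was at least 47.9-fold higher and Lum, the corneal and dermal proteoglycan lumican, at least 44.0-fold higher in uns-1. Slc13a4, a sulfate transporter gene, was at least 61.4-fold and Vwde at least 59.2-fold higher in uns-2. Slc13a4 had 0 counts in EF and at most 0.0743 CPM in ha, so it was high in the uns-2 pair only among these 8 libraries.

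**Figure D2:**
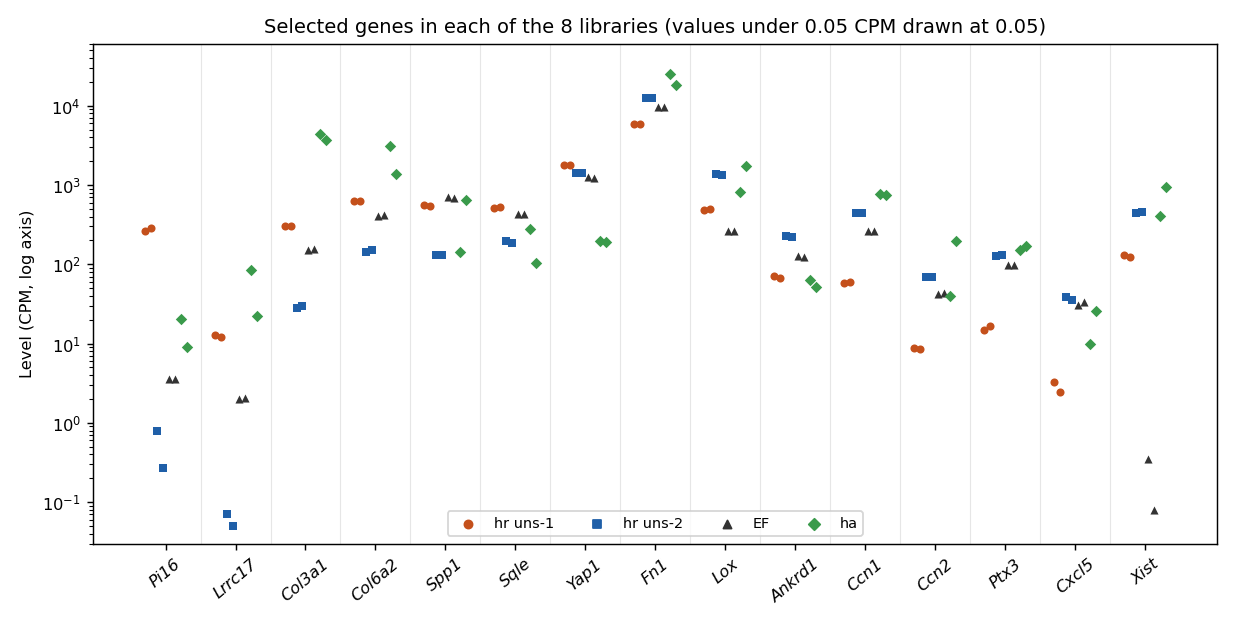
Levels of 15 genes in each of the 8 libraries, in CPM on a log axis, with hr uns-1 as circles, hr uns-2 as squares, EF as triangles and ha as diamonds. The 2 libraries of each hr pair lie close together for every gene shown except the low uns-2 values of Pi16 and Lrrc17, Yap1 differs little between the hr pairs, and Xist is near 0 in EF.

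The YAP1 gene itself differed little between the hr pairs, but 8 of 21 tested YAP1/TAZ-TEAD target genes were called, all of them higher in uns-2 and none in uns-1. That is 38.1% of the list, beside 9.03% over all tested genes, and the share called is given in the same way for the lists that follow. The list's median log2 difference was -0.52, beside -0.0041 over all tested genes, and its summed level was 2694 to 2709 CPM in uns-1 and 4674 to 4691 CPM in uns-2. Yap1 stood at 1799 and 1802 CPM in uns-1, 1428 and 1418 CPM in uns-2, 1259 and 1230 CPM in EF and 199 and 188 CPM in ha. The log2 difference of 0.34 ± 0.02 was below 2-fold, so Yap1 was not called, though it passed the adjusted p (edgeR adjusted p = 5.41e-11). Wwtr1 was at 136 and 131 CPM against 130 and 129 CPM, a log2 difference of 0.04 ± 0.04 (edgeR adjusted p = 0.399).

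Ccn1, which encodes a secreted matricellular protein (ENSMUSG00000028195, GRCm38 chromosome 3, 145646976 to 145649981), was at 58.1 and 59.0 CPM in uns-1 and at 444 and 438 CPM in uns-2. EF lay between them at 265 and 261 CPM, and ha was above both at 761 and 737 CPM. The log2 difference between the hr pairs was -2.91 ± 0.03 (edgeR adjusted p = 1.03e-19). Ccn2, its paralog known as connective tissue growth factor, was at 8.74 and 8.57 CPM against 69.1 and 68.9 CPM, a log2 difference of -2.99 ± 0.08 (edgeR adjusted p = 5.63e-15). EF was again between the pairs, at 41.9 and 43.4 CPM. Ankrd1, a sarcomeric and nuclear ankyrin repeat protein gene, was at 71.2 and 67.8 CPM against 230 and 221 CPM, a log2 difference of -1.70 ± 0.04 (edgeR adjusted p = 3.58e-16). For Ankrd1 the 2 ha libraries, at 62.6 and 51.7 CPM, were below all others.

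The rest of the called targets were Amotl2, an angiomotin that binds YAP1 (-1.59), Crim1 (-1.55), the phosphatase Ptpn14 (-1.08), the kinase Lats2 (-1.07) and the LIM protein gene Ajuba (-1.01). Amotl2, Ptpn14, Lats2 and Ajuba encode proteins that restrain or bind YAP1 or its kinases. Of the 13 targets not called, 6 passed the adjusted p with uns-2 higher and 4 with uns-1 higher, the latter being Tgfb2, Asap1, Foxf2 and Arhgef17. Among 24 tested Hippo pathway components, 5 were called (20.8%), all higher in uns-2, and 3 by the test against a 2-fold change, with a list median of -0.15. Besides Amotl2 and Lats2 these were the TEAD cofactor gene Vgll3 (-1.60), the TEAD factor gene Tead4 (-1.10) and the protocadherin gene Fat4, which had 1 count in each uns-1 library. Tead1 was at 173 and 174 CPM against 275 and 271 CPM (-0.66), under 2-fold.

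The promoters of 3 called targets are shown because 6 of the 7 called targets found in the RefSeq promoter table (GRCm38.p6) hold the TEAD motif GGAATG, on either strand, in the 250 bases before the transcription start. It occurs in 7 of the 16 tested targets found there and in 12.6% of all 32851 promoter stretches of that length. These shares are not alike. A target counted if any of its stretches matched, whereas the 12.6% counts each stretch of 27025 genes on its own. Where a gene had several stretches, the first with a match is shown. The Amotl2 and Ankrd1 stretches lie inside the GENCODE spans of their genes (102716672 to 102733418 and 36111961 to 36120099). Each is written 5' to 3' on the gene's strand with the motif or its reverse complement in capitals. Ccn1 (chr3:145649986-145650235, minus strand) holds 1 match starting 103 bases before the start, Ankrd1 (chr19:36119845-36120094, minus strand) holds 2, at 210 and 123 bases, and Amotl2 (chr9:102717554-102717803, plus strand) holds 1, at 65 bases. A match describes these letters and was not tested for binding. The list was drawn up as TEAD targets, so a high share of the motif says nothing about the difference between the hr pairs.
Ccn1: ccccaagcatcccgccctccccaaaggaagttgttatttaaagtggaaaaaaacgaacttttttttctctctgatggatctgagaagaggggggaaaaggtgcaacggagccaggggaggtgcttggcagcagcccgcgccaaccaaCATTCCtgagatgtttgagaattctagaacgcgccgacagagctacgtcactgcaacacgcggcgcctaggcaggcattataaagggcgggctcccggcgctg
Ankrd1: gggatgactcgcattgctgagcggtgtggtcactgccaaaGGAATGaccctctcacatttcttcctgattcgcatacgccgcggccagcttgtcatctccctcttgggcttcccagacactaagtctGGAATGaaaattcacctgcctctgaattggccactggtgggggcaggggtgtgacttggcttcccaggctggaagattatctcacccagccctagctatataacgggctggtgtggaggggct
Amotl2: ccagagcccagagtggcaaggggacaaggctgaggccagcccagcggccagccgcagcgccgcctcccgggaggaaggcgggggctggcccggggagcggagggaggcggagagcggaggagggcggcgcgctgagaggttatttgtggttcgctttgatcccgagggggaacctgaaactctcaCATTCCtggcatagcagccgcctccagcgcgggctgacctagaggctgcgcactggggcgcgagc

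Contractile genes and immediate early genes differed in part. Of 19 tested contractile and mesenchymal transition genes, 3 were called (15.8%), all higher in uns-2 (median -0.58), and 5 without uns-1 library 2. Past the adjusted p alone, 11 of the 19 were higher in uns-2 and 4, none of them called, higher in uns-1. Tagln, the smooth muscle actin-binding protein transgelin, was at 4.62 and 5.18 CPM against 29.1 and 28.6 CPM (-2.56; edgeR adjusted p = 3.55e-12, and 0.0512 with all 8 libraries in the fit). Acta2, smooth muscle actin, was at 36.0 and 32.8 CPM against 91.3 and 93.8 CPM (-1.43). Filamin genes, whose products crosslink actin, were among the genes of largest difference in CPM: Flna stood at 1134 and 1144 CPM in uns-1 and 2578 and 2596 CPM in uns-2 (-1.18), with Flnc at -1.37. Of 17 tested AP-1 and EGR factors, 6 were called higher in uns-2 and 1 higher in uns-1 (41.2% called, median -0.61), and 10 were not called. Egr1 was at 36.3 and 34.7 CPM against 158 and 155 CPM (-2.14 ± 0.05; edgeR adjusted p = 3.02e-16, and 0.0593 with all 8 libraries in the fit), and Fos, at 0.509 to 0.588 CPM against 2.43 and 3.21 CPM, was low in both. Egr2, at 2.60 and 1.70 CPM against 0.856 and 0.982 CPM, went the other way, but its call was lost without uns-1 library 1, uns-2 library 1 or uns-2 library 2 (edgeR adjusted p = 0.177, 0.12 and 0.074). With all 8 libraries in the fit, 1 AP-1 or EGR gene was called higher in uns-2. The 2 ha libraries were far apart for such genes, as in Fosb at 261 and 12.5 CPM.

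Several long genes were also higher in uns-2. Ahnak, a giant scaffold protein gene, was at 2112 and 2107 CPM against 6109 and 6356 CPM (-1.56), the basement membrane proteoglycan gene Hspg2 at -1.71 and the dynein heavy chain gene Dync1h1 at -1.83. Of the 1297 tested genes with the longest exon sequence, 9723 bases or more, 56 were called higher in uns-1 and 102 higher in uns-2, and their median was -0.09. Among the 1298 shortest, up to 1369 bases, the counts were 48 and 68 and the median 0.07. Over all 12975 tested genes the counts were 611 and 561 and the median -0.0041. With length and GC trends removed, 1160 genes were called in place of 1172. The part of transcript length in these differences was not tested further.

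Genes of cholesterol synthesis went in the other direction. Of 23 tested genes of cholesterol and fatty acid synthesis, 14 were called (60.9%), all higher in uns-1, and 21 of the 23 were higher in uns-1 whatever their size. The median log2 difference was 1.35, and the summed level was 6256 to 6294 CPM in uns-1 and 3237 to 3274 CPM in uns-2. Hmgcs1, the HMG-CoA synthase gene (ENSMUSG00000093930, GRCm38 chromosome 13, 119690379 to 119708260), was at 300.0 and 289 CPM in uns-1 and at 104 and 102 CPM in uns-2. EF was near uns-1 at 251 and 244 CPM, and ha was lower at 146 and 98.5 CPM. The log2 difference was 1.51 ± 0.03 (edgeR adjusted p = 3.58e-16). Sqle, squalene epoxidase, stood at 512 and 525 CPM against 195 and 187 CPM, a log2 difference of 1.44 ± 0.03 (edgeR adjusted p = 1.39e-16). Here too EF, at 428 and 436 CPM, lay near uns-1, and the ha libraries differed from each other, at 278 and 103 CPM.

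The called genes included the mevalonate pathway genes Mvk (1.04), Mvd (2.05), Idi1 (1.54) and Fdps (1.74), the squalene and lanosterol genes Fdft1 (1.30), Sqle and Lss (1.53), and the later sterol genes Cyp51 (1.43) and Dhcr7 (1.70), and with them the sterol sensor Insig1 (1.45) and the desaturase Scd1 (1.38). The factor gene Srebf2 was at 349 and 363 CPM against 213 and 203 CPM (0.78), under 2-fold. The fatty acid synthesis genes Fasn (-0.47) and Acaca (-0.29) were lower in uns-1.

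The promoter of Hmgcs1 is shown because it is the only one of 14 tested members found in the RefSeq table whose 250 bases before the start hold the sterol regulatory element TCACNCCAC on either strand. Of the 14, 8 belong to called genes. The motif occurs in 1.05% of the 32851 stretches of that length, each counted on its own, whereas a member counted if any of its stretches matched. In Hmgcs1 (chr13:119690101-119690350, plus strand, GRCm38.p6) it starts 137 bases before the start and is in capitals. That the other 13 lack these letters in this window says nothing of the factor.
Hmgcs1: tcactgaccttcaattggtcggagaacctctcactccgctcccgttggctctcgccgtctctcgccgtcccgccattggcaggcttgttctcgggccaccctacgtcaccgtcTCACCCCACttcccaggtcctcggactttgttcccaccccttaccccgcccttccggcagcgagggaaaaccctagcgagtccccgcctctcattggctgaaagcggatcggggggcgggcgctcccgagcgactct

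**Figure D3:**
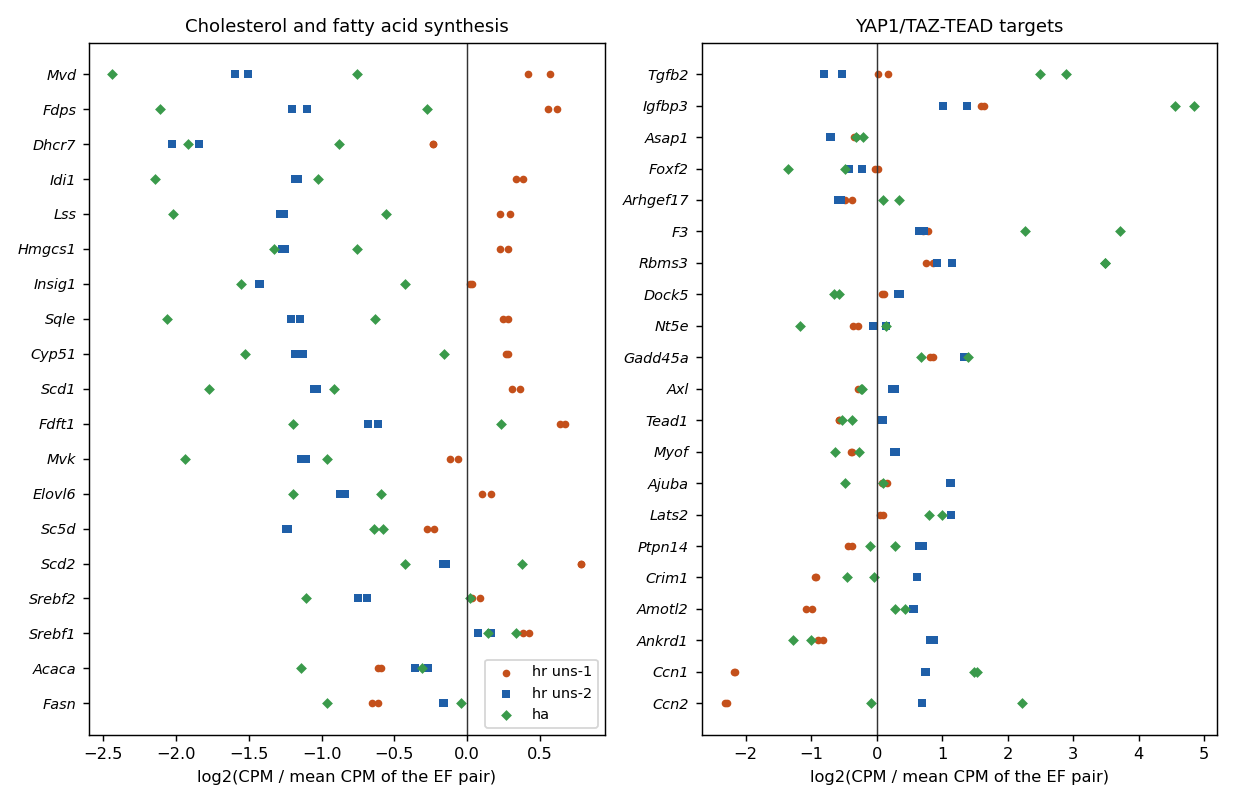
Levels of tested members of the cholesterol and fatty acid list (left) and of the YAP1/TAZ-TEAD target list (right), as log2 of CPM over the mean of the EF pair, for hr uns-1 (circles), hr uns-2 (squares) and ha (diamonds). For Mvd to Srebf2 the uns-2 libraries lie left of the uns-1 libraries, and for Ajuba to Ccn2 the uns-2 libraries lie to the right.

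Matrix genes split between the pairs. Of 19 tested collagen genes, 3 were called higher in uns-1 and 3 higher in uns-2 (31.6% called), and of 28 matrix glycoproteins and proteoglycans 6 and 8 (50% called). With all 8 libraries in the fit, 5 glycoprotein and proteoglycan genes were called higher in uns-2. Col3a1, the fibrillar collagen of loose connective tissue, was at 299.9 and 302 CPM in uns-1 and at 28.3 and 30.1 CPM in uns-2, with EF between them at 149 and 154 CPM and ha at 4383 and 3681 CPM. The log2 difference was 3.37 ± 0.04 (edgeR adjusted p = 1.68e-19). Dcn, the collagen-binding proteoglycan decorin, was at 144 and 139 CPM against 10.7 and 10.4 CPM (3.75 ± 0.06; edgeR adjusted p = 5.58e-18). Col6a1 and Col6a2, chains of the microfibrillar collagen VI, differed by 1.77 and 2.10, whereas the third chain Col6a3 differed by 0.11. Spp1, the bone matrix protein osteopontin, was at 551 and 538 CPM against 129 and 131 CPM (2.07).

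Other matrix genes were higher in uns-2. Fn1, fibronectin and the most abundant of them, stood at 5857 and 5831 CPM in uns-1 and at 12484 and 12533 CPM in uns-2, with EF at 9637 and 9749 CPM (-1.10 ± 0.01; edgeR adjusted p = 1.68e-20). Lox, the collagen-crosslinking oxidase, was at 489 and 493 CPM against 1390 and 1331 CPM (-1.47), and here EF, at 266 and 263 CPM, was below both pairs. Col5a2 (-1.11) and Col11a1 were also higher in uns-2, while the main bone collagen genes Col1a1 (-0.04) and Col1a2 (0.03) were near equal. Of 17 tested genes that EWS::FLI1 represses in human cells, 8 were called higher in uns-2 and 1, Col6a2, higher in uns-1 (52.9% called, median -0.82). With all 8 libraries in the fit, 5 were called higher in uns-2. Among the 8 were Fn1, Lox, Ccn2, Slit2 (-1.18) and Foxo1 (-1.02). The call of Slit2 was lost with all 8 libraries (edgeR adjusted p = 0.108), and with length and GC trends removed its log2 difference was -0.90, under 2-fold. Of 12 tested genes that it activates in human cells, 2 were called in each direction (33.3% called). Those higher in uns-2 included the cyclin gene Ccnd1, at 405 and 421 CPM against 899 and 912 CPM (-1.13).

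**Figure D4:**
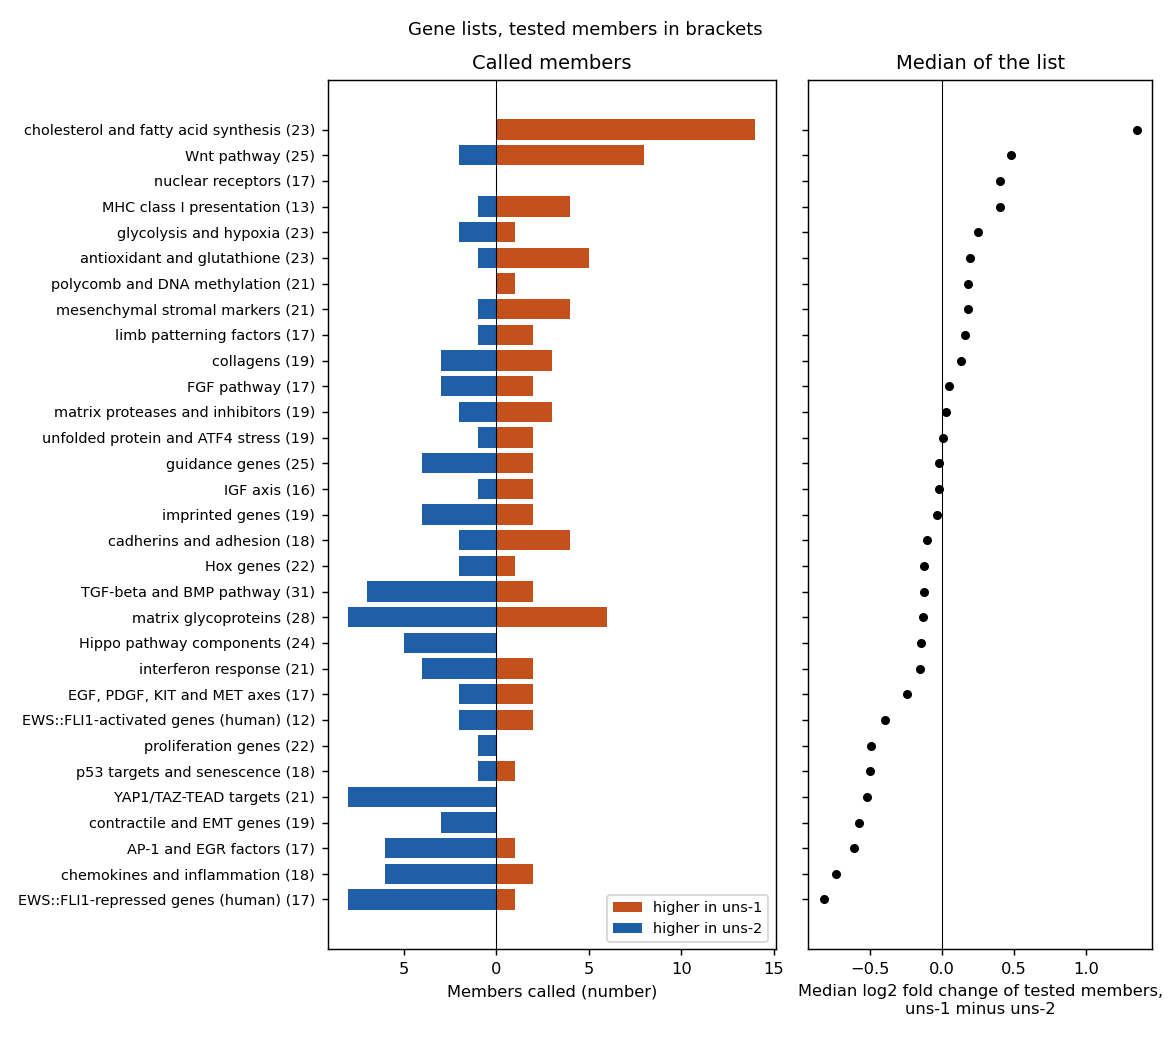
Gene lists with at least 10 tested members, the number tested in brackets: left, members called higher in uns-1 (right of 0) or in uns-2 (left of 0); right, the median log2 fold change of the tested members. Cholesterol and fatty acid synthesis has the highest median, 1.35, and the human EWS::FLI1-repressed genes the lowest, -0.82.

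Mesenchymal and signalling genes were divided as well. Of 21 tested mesenchymal stromal markers, 4 were called higher in uns-1 and 1 higher in uns-2 (23.8% called, median 0.18). Past the adjusted p alone, 11 were higher in uns-1 and 6 higher in uns-2. The stromal markers Pdgfra, a growth factor receptor gene, at 267 and 254 CPM against 81.8 and 89.7 CPM (1.61), and Cxcl12, the stromal chemokine, at 86.7 and 88.4 CPM against 24.5 and 22.3 CPM (1.90), were higher in uns-1 with Grem1 (1.38) and Pdgfrb (1.25). The call of Grem1 was lost with all 8 libraries in the fit (edgeR adjusted p = 0.153). Nes, the intermediate filament nestin, was higher in uns-2 (-1.65). The limb mesenchyme factor gene Prrx1 was at 253 and 243 CPM against 156 and 163 CPM (0.64), under 2-fold. Of 25 tested Wnt pathway genes, 8 were called higher in uns-1, among them the ligand gene Wnt10b (2.38), the receptor genes Lrp4 (2.16) and Lgr4, at 27.8 and 27.6 CPM against 10.1 and 9.37 CPM, and Dkk3 (2.04), and 2 higher in uns-2 (40% called). The 8 became 5 with all 8 libraries in the fit and 5 by the test against a 2-fold change. Of 31 TGF-beta and BMP pathway genes, 7 were called higher in uns-2, including the inhibitor gene Smad7 (-1.74) and the activin subunit gene Inhbb (-1.97), and 2 higher in uns-1, Grem1 and the ligand gene Tgfb3 (1.30), in all 29.0%. Of 18 chemokine and inflammation genes, 6 were called higher in uns-2, including the macrophage growth factor gene Csf1 (-1.78), and 2 higher in uns-1 (44.4% called).

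Of the IGF axis, the ligand gene Igf1 was near the detection limit, at 0.924 and 0.934 CPM against 0.856 and 1.16 CPM (-0.10 ± 0.46; edgeR adjusted p = 0.868), and Igf2 had 0 counts against 2. The receptor gene Igf1r was at 119 and 116 CPM against 170 and 171 CPM (-0.54). Of 16 tested IGF axis genes, Pappa2 (1.06) and Igfbp5, with 68 counts against 3, were called higher in uns-1, and the adaptor gene Irs2 (-1.27) higher in uns-2 (18.8% called). None of the 3 was called with all 8 libraries in the fit (edgeR adjusted p = 0.195 for Igfbp5, 0.166 for Pappa2 and 0.067 for Irs2). The call of Pappa2 was also lost by the DESeq2 Wald test (adjusted p = 0.154) and without uns-1 library 2, uns-2 library 1 or uns-2 library 2 (edgeR adjusted p = 0.137, 0.114 and 0.0591). Mouse Fli1 was low, at 1.09 and 1.10 CPM against 1.86 and 1.34 CPM (edgeR adjusted p = 0.261), and Ewsr1 differed by -0.27. Cav1 differed by 0.50. Trp53 was at 99.9 and 112 CPM against 149 and 147 CPM (-0.48), and Cdkn2a, Nr0b1 and Nkx2-2 had no count in the hr libraries.

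Proliferation genes shifted together by less than 2-fold. All 22 tested members were lower in uns-1, 20 of them past the adjusted p, with a median of -0.49 and sums of 2096 to 2110 CPM in uns-1 and 3133 to 3163 CPM in uns-2. Only Rrm2, the ribonucleotide reductase subunit gene, was called (4.55%), at 48.9 and 48.5 CPM against 109 and 122 CPM (-1.24).

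Xist, the RNA that coats the inactive X chromosome, separated the pairs and EF. It was at 130 and 123 CPM in uns-1, 448 and 452 CPM in uns-2, 0.350 and 0.0786 CPM in EF and 405 and 949 CPM in ha. The log2 difference between the hr pairs was -1.83 ± 0.03 (edgeR adjusted p = 1.30e-17). The Y-linked genes Ddx3y and Eif2s3y, and Tsix, the antisense gene of Xist, had no count in the hr libraries. The 413 tested X-linked genes had a median of -0.07, and 10 were called higher in uns-1 and 18 higher in uns-2. That is 6.78% called, beside 9.03% over all tested genes.

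For the called genes, EF was nearer to uns-1 in 693 (59.1%) and to uns-2 in 479, on the log2 scale, and lay between the pairs in 694. Among the 611 higher in uns-1, EF was nearer to uns-1 in 337 and ha in 390 (63.8%), and ha was above both pairs in 280. Among the 561 higher in uns-2, EF was nearer to uns-1 in 356 (63.5%). There ha was nearer to uns-1 in 276 (49.2%) and to uns-2 in 285. The EF and ha libraries took no part in the calls.

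Differences of small size were shared by whole chromosomes. The 341 tested genes of chromosome 18 had a median log2 difference of -0.36, with 80.1% lower in uns-1, and chromosomes 3 (-0.19) and 14 (-0.18) also had lower medians in uns-1. Chromosomes 2 (0.15), 16 (0.13) and 7 (0.12) had higher medians in uns-1. Relative to EF, the chromosome 18 median was 0.28 in uns-1 and 0.63 in uns-2, and that of chromosome 14 was 0.25 and 0.47. Of 250 windows of 50 neighbouring tested genes, 9 had a median past 0.3 in either direction, from -0.42 to 0.65, and none did between the libraries of the uns-1 or the uns-2 pair, where medians ran from -0.06 to 0.07. Between the 2 ha libraries 9 windows also passed 0.3, with medians from -0.81 to 0.33, and within the EF pair none did. The highest between the hr pairs was at the distal end of chromosome 2 (174076308 to 179177880, GRCm38). It holds Gnas, the stimulatory G protein subunit gene, at 1002 and 1003 CPM against 688 and 691 CPM (0.54), and Cdh26 (1.17), and its median also differed between the 2 ha libraries, by -0.81. The next was on chromosome 8 (70331525 to 71993792; 0.45), with Pik3r2 (1.02), whose call was lost with all 8 libraries in the fit (edgeR adjusted p = 0.0982). In the lowest window, on chromosome 18 (21001341 to 34751533; -0.42), 40 of 50 genes were lower in uns-1. Slc39a6 (-0.90) and Wdr36 (-0.69) were among them, while Reep5 (0.13) was not. Single genes also went against the other 2 windows. In that of chromosome 2, 6 of 50 genes were lower in uns-1, Prelid3b (-0.28) and Ctsz (-0.01) among them. In that of chromosome 8, 7 of 50 were, Myo9b (-0.22) among them.

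**Figure D5:**
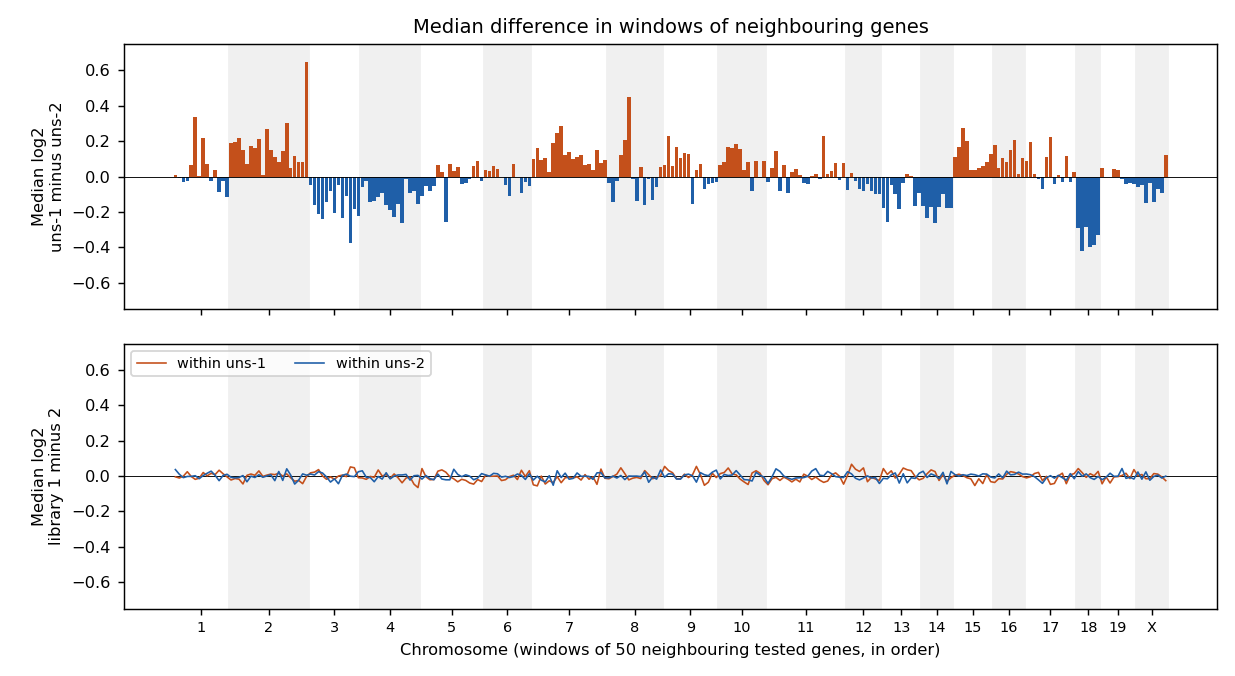
Median log2 difference in each of 250 windows of 50 neighbouring tested genes, ordered along chromosomes 1 to 19 and X: above, uns-1 minus uns-2; below, library 1 minus library 2 within each hr pair. Runs of like sign span chromosomes 2, 3, 4, 14 and 18 above, whereas the within-pair lines stay between -0.06 and 0.07.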

How the data were processed

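The authors deposited a merged table of expected counts per gene, which RSEM estimated after STAR alignment to GRCm38.p6, per the submitters' processing notes. The labels state no versions, annotation release or strand setting, so overlapping and antisense genes and near-identical copies, whose reads RSEM shares out, are uncertain. Counts were rounded to whole numbers; 7.82% to 8.82% of a library's values were not whole. Of 55471 gene IDs, 55230 matched GENCODE M21, which gave symbols and positions.

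Genes were filtered by edgeR's filterByExpr (minimum count 10), scaled by TMM and tested with the two-sided quasi-likelihood test of edgeR 4.0.16 in R 4.3.3 on the 4 hr libraries, with Benjamini-Hochberg adjustment over all 12975 genes. Fold changes are uns-1 minus uns-2, with standard errors. On simulated data with known answers, 100 of 100 genes changed 3-fold were called, 88 of 100 changed 1.5-fold passed the adjusted p, and 5 of the unchanged ones did. Every simulated gene had the same spread (0.0423), and the changed genes were drawn only from those above a minimum mean count. Recovery of genes with few counts was not tested. Where a pair has 0 counts the fold is a bound against 3 counts. For Dpt and Lrrc17, with 1 count in a pair, the 95% counting interval is given. Both cover counting error only.

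Genes named were the key genes of the study, the 12 of largest fold change (10 CPM or more) and the 10 of largest CPM difference in each direction, up to 4 called per list, the genes on in 1 pair only, and up to 6 in the windows of largest shift; the other members of the sterol, YAP1, Hippo, AP-1, collagen, Wnt, antioxidant and marker lists were named after their values were seen. The members and the gene lists were chosen with earlier results of these data known, and no list was tested as a set. Alternatives were DESeq2 1.42.0 (size factors and Wald test), limma 3.58.1 (voom), other filters, a test against 2-fold, all 8 libraries in the fit, summed pairs, a replicate block, leaving out each library, and a removed length and GC trend, the last chosen after seeing the data. Promoter sequences are from RefSeq. Results of some genes are not reported here.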

Additional observations from a re-analysis of the deposited data

How the results depend on the processing

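The 1172 called genes kept their direction under each alternative in which they were tested, but the balance of calls turned with no filter on low counts, which called 1494 genes, 740 higher in uns-1 and 754 higher in uns-2. The 1172 (611 higher in uns-1, 561 higher in uns-2) became 633 (372 and 261) among genes of at least 5 CPM in 2 libraries, where 634 of the 1172 were tested, and 527 (288 and 239) by the test against a 2-fold change, which asks for more. With all 8 libraries in the fit 803 were called, 448 and 355, and 802 of them were among the 1172. With the pairs summed and the spread taken from the ha pair, 0 were called (0 and 0), 0 passed the adjusted p, and every list count was 0, those of cholesterol, YAP1 and AP-1 genes included. That summed fit had 1 library on each side and little power at any fold, so its 0 cannot be put down to the spread alone. The 7199 genes past the adjusted p became 4575 by the DESeq2 Wald test (900 called) and 3060 with all 8 libraries. With the replicate block 7527 passed and 1200 were called, 622 and 578. The library 1 minus library 2 differences of the pairs correlated at -0.0421 over genes. These differences were close to counting noise, so this cannot tell whether libraries with the same second uns number belong together. DESeq2 size factors gave 1167 calls and limma-voom 1175. Leaving out 1 library at a time gave 1018 to 1106 calls and 5776 to 6165 past the adjusted p, with the lone library assumed to vary like the other pair.

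The 165 called entries of the gene lists became 107 by the test against a 2-fold change, which left 5 of 8 YAP1/TAZ-TEAD targets and 3 of 6 AP-1 and EGR factors. The latter were 3 at 5 CPM and 1 with all 8 libraries in the fit. The chromosome 18 median of -0.364 was -0.401 at 5 CPM and -0.383 to -0.363 when 1 library was left out. Over genes of at least 10 CPM the mean distance between the hr pairs rose from 12.9 to 19.5, and within uns-1 and uns-2 it was 1.279 and 1.28. Of 148 called genes that the naming rule gave, 127 were called with all 8 libraries, 140 by the DESeq2 Wald test, 142 with length and GC removed and 137 to 142 without 1 library. Those lost with all 8 libraries include Egr1, Tagln, Ctla2a, Slit2, Irs2, Grem1, Igfbp5 and Pik3r2 (edgeR adjusted p = 0.0512 to 0.195). Maff, Egr2, Fosb and Atf3 were lost by a wider margin (edgeR adjusted p = 0.338 to 0.498). The labels name no separate cultures within a pair, so whether the differences exceed the spread between cultures was not tested.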

Other observations

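The antioxidant and antigen presentation lists, which the report does not describe, also split. Of 23 tested antioxidant and glutathione genes, 5 were called higher in uns-1 and 1 higher in uns-2, 26.1% beside 9.03% over all tested genes. Aldh3a1, an aldehyde dehydrogenase gene, stood at 359 and 371 CPM in uns-1 and at 84.1 and 88.5 CPM in uns-2, with EF between them at 186 and 186 CPM (log2 difference 2.08). The NRF2 target gene Nqo1 was at 89.5 and 91.0 CPM against 36.7 and 38.1 CPM (1.27), and Gstm1, a glutathione transferase gene, at 219 and 219 CPM against 84.4 and 83.9 CPM (1.38). Other genes often named with them did not share this direction: Gclm differed by -0.59 and Hmox1 by -0.41. Of 13 tested genes of MHC class I presentation, 4 were called higher in uns-1 and 1 higher in uns-2 (38.5%). The 4 became 2 among genes of at least 5 CPM in 2 libraries and 1 by the test against a 2-fold change. Among the 4 were the peptide transporter gene Tap2 (1.24) and the immunoproteasome gene Psmb9 (1.44), whereas Nlrc5, which encodes the transactivator of class I genes, was higher in uns-2, at 0.420 and 0.849 CPM against 3.57 and 4.19 CPM (-2.59).

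Bnip3, a mitophagy gene induced by hypoxia, was at 588 and 576 CPM in uns-1 and 280.3 and 277 CPM in uns-2 but at 58.0 and 65.0 CPM in EF, so both hr pairs were above EF. Of 23 tested glycolysis and hypoxia genes, 1 was called higher in uns-1 and 2 higher in uns-2 (13%). Past the adjusted p alone, 16 were higher in uns-1 and 3 higher in uns-2, with a list median of 0.25. Hk2, a hexokinase gene, went against Bnip3 (-1.18). Pcdhgc4, of the clustered protocadherins whose shared exons RSEM has to divide, was at 0.420 and 0.764 CPM in uns-1, 11.4 and 17.3 CPM in uns-2, and 8.32 and 0.629 CPM in the 2 EF libraries. Mcl1, the survival gene of the BCL2 family, was the most abundant gene called higher in uns-1, at 3547 and 3760 CPM against 1538 and 1601 CPM (1.22).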
